A study of Mus musculus with 12 samples.

Results

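The comparison set round spermatids, the haploid cells that follow the meiotic divisions, against type A spermatogonia, the mitotic germ cells at the other end of the sampled series. Its members were the 6 of 12 arrays titled with those names, 1 array of each cell type on each of the 3 Affymetrix designs U74Av2, U74Bv2 and U74Cv2, which carry largely different genes. Total RNA of mouse germ cells isolated by type had been labelled with the one-cycle protocol. The labels give no strain, age, genotype, treatment, isolation method or number of animals for either group, and describe every array as a singlet. The 6 other arrays, of type B spermatogonia and pachytene spermatocytes, were used only to place differences between both ends. With 1 array per cell type and design there is no replicate error and no p-value here, and every statement below describes these arrays.

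Spermatogonia divide by mitosis on the wall of the seminiferous tubule and either renew themselves or enter differentiation. Pachytene spermatocytes are in meiotic prophase, when homologous chromosomes are paired and the X and Y chromosomes are largely silenced in a chromatin domain of their own. Round spermatids are haploid, remain joined by cytoplasmic bridges, and build the acrosome and the flagellum while many of their mRNAs are stored for translation after transcription has ceased. Their histones are later replaced by transition proteins and then by protamines.

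Values are MAS5 signals, a linear intensity per probe set. Each gene is represented by 1 probe set, both cell types are always read on the same design, and signals below a floor (0.4 of the trimmed mean signal of the arrays, between 50.01 and 50.03) were set to it. Where the lower cell type sits at the floor, the fold can only be bounded and is given as "at least". Of 15964 named genes on the 3 designs 12295 were over the floor in at least 1 of the compared cell types and are called measured. Over the floor were 8755 in both, 1335 only in round spermatids and 2205 only in type A spermatogonia. The share of probe sets over the floor was 51.2% to 60.5% on the type A arrays and 45.8% to 50.2% on the round spermatid arrays. The highest of 19 negative controls per array read 17.2 to 69.1 and 28.4 to 59.0, so background cannot be told from weak signals close to the floor. The only repeats are inside the arrays: 28 control probe sets present on all 3 designs had log2 ratios with an SD of 0.57 over designs, which makes 2.20-fold the size of 2 SD. When the ratios of probe sets that read the same gene were compared, 44.6% of 10214 pairs disagreed by over 2-fold and 17.2% by over 4-fold. These spreads hold no error between cell preparations.

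Both labels were checked against marker lists. Among 28 spermatid markers measured, round spermatids exceeded type A spermatogonia by at least 4-fold in 22 and were lower by that much in none, and 22 were at the floor in type A spermatogonia. The exceptions include Prm2, a protamine, at only 67.3 in round spermatids, Crem, an activator of spermatid genes, at 58.9, and Spaca1, an acrosome membrane protein, at 57.7 in type A spermatogonia and the floor in round spermatids. For differentiating spermatogonia 16 markers were measured, of which 6 (37.5%) were at least 4-fold lower in round spermatids and 2 (12.5%) higher. Of 19 markers of undifferentiated spermatogonia 6 (31.6%) were lower and none higher. Of all measured genes 9.19% were lower and 9.63% higher by as much. The sums below add the signals of all listed genes on the 3 designs, those under the floor included, so they also hold background. Pachytene markers rose too: 11 of 17 measured (64.7%) passed 4-fold upwards in round spermatids and 0 downwards, with a median log2 ratio of 4.20. Their sum (19 genes) was 46523 in round spermatids and 51929 in pachytene spermatocytes, so this list does not set these cell types apart. Spermatid markers (28 genes) summed to 101161 and 10723. Whether pachytene cells were present in the round spermatid samples was not tested. The type A arrays also carried markers of other testis cells. Sertoli markers (23 genes) read 12937 in type A spermatogonia and 3142 in round spermatids, and fibroblast and matrix markers (22 genes) 13261 and 2634. Peritubular myoid markers (13 genes) read 5084 and 2434. These are bulk RNA samples, in which fewer cells of a type and less RNA per cell cannot be told apart. The Sertoli markers Sox9 (775 against 394), Gata4 (544 against the floor) and Wt1 (304 against the floor) were over the floor in type A spermatogonia, while Amh, Krt18 and Vim were at the floor in both. Leydig markers read 2261 and 1394 in sum, with 5 and 9 of 13 genes at the floor, the steroid genes Insl3 and Hsd3b6 in both. Macrophage markers read 1525 and 909, with 11 and 12 of 18 genes at the floor, Ptprc, Adgre1 and Lyz2 in both. Endothelial markers read 934 and 399, with 5 and 7 of 11 genes at the floor, Kdr, Tek and Vwf in both. Of the erythroid markers, the haemoglobin gene Hba-a1 read 309 and 93.2, and Alas2 and Epb42 were at the floor in both.

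In round spermatids 1184 of the 12295 measured genes (9.63%) were at least 4-fold higher than in type A spermatogonia, 1130 (9.19%) were at least 4-fold lower, and 1382 (11.2%) had similar levels, that is, 2 signals over 2 floors of which the higher exceeded the lower by under 25%. The shares of 9.63% and 9.19% of all measured genes are the background for the list counts below. Of the higher genes 517 were at the floor in type A spermatogonia, and of the lower genes 422 were at the floor in round spermatids. At 2-fold 2214 genes (18.0%) were higher and 3477 (28.3%) lower, whereas at 8-fold 700 were higher and 253 lower. The lower genes were thus more numerous at small folds and the higher genes at large folds. The median log2 ratio over all measured genes was -0.28, with quartiles of -1.13 and 0.58. The balance between both directions depended on the scaling: 51.2% of the 4-fold calls were higher here, 67.4% with arrays scaled to a common median (1486 higher and 719 lower) and 40.4% with bacterial spike-in controls (1118 and 1650). Relative to the scaling used here, the first moved the median of all genes by 0.38 on the log2 scale, quantile normalization by 0.19 and spike-in scaling by -0.16. Where a called gene had another probe set, that probe set was at least 2-fold in the same direction for 229 of 432 higher genes and in the opposite direction for 45. For lower genes the numbers were 325 of 569 and 30. Of the genes named here that differed by at least 4-fold, 87 had other probe sets, and for 48 of these at least 1 of the others was under 2-fold or in the opposite direction. Besides those whose other probe sets are given with their values, they were Acr, Adam5, Adam32, Cox8c, Ddx25, Dnajb3, H2ap, Hils1, Izumo1, Ndufc1, Cox7a2, Ppp3r2, Psme4 and Tdrd7 of the higher genes. Of the lower genes they were Adam10, Atm, Cadm1, Celf1, Cstf2, Dnmt3a, Gata4, Hnrnpa2b1, Huwe1, Mki67, Nfia, Nr4a1, Peg3, Phf8, Rpa2, Sox4, Tubb5, Ubr2 and Ywhaz.

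**Figure D1:**
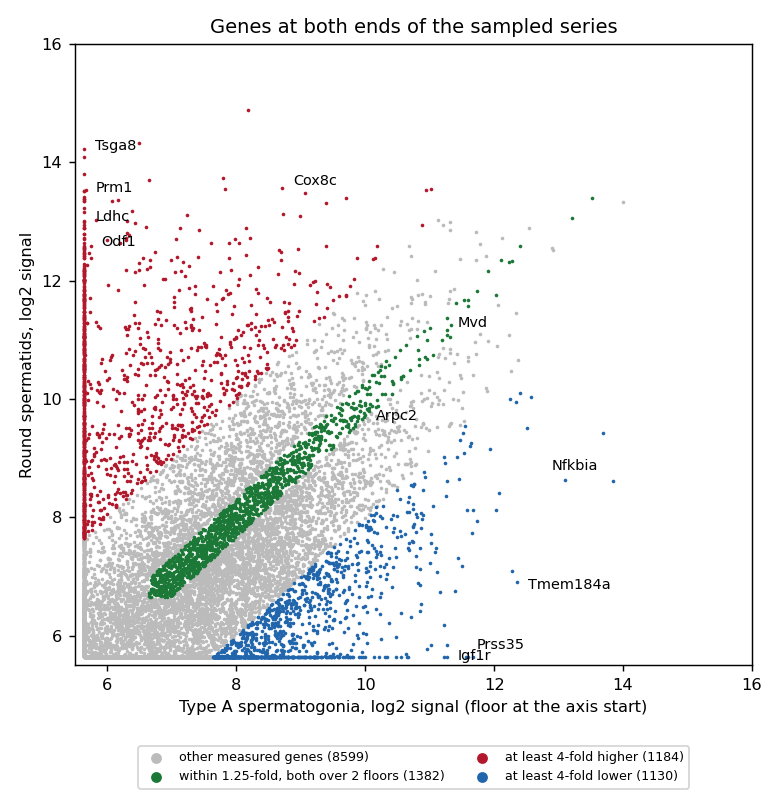
Signals of 12295 measured genes in type A spermatogonia (horizontal axis, log2) and round spermatids (vertical axis, log2), 1 array per cell type and design, with the 3 designs pooled and the floor at 5.64. The 1184 genes at least 4-fold higher in round spermatids are red and pile up on the left edge where the type A signal is at the floor, the 1130 at least 4-fold lower are blue, and the 1382 of similar level are green.

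Genes of sperm chromatin held 3 of the 10 highest bounds among all genes, those of Tsga8, Prm1 and Tnp2. Among the 24 members measured, 12 were at least 4-fold higher in round spermatids and 1 lower, with a median log2 ratio of 2.36. Tsga8, an X-linked nuclear protein gene of spermatids, read the floor in type A spermatogonia and 17452 in round spermatids, a difference of at least 349-fold. Protamine 1, Prm1, which packs DNA in the sperm head, went from the floor to 14319.9 (at least 286-fold), while another Prm1 probe set had a log2 ratio of -0.31. Transition protein 2, Tnp2, which takes the place of histones before the protamines, went from the floor to 10430.5 (at least 208-fold), with another probe set at 0.53. Transition protein 1, Tnp1, was measured at both ends, at 111 and 1964 (17.7-fold). All 4 read highest in round spermatids among the 4 sampled cell types. Of the spermatid histone variants, the linker histones Hils1 and H1f7 read 2193 and 1589.8 against the floor, and H2al2a read 3415 against the floor. The bromodomain gene Brdt, which reads acetylated histones, was 15.4-fold higher, from 158 to 2432, and Cdyl, a chromodomain gene, 19.8-fold higher, although another probe set of Cdyl had a log2 ratio of -3.01.

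Acrosome and egg-binding genes were higher as a list: 18 of 27 measured members at least 4-fold and none lower by that much, with a median log2 ratio of 4.54. Dkkl1, a secreted acrosomal protein gene, went from the floor to 9599 (at least 192-fold), and Zpbp2, a zona pellucida binding protein gene, from 100.01 to 13344 (133-fold). Crisp2, of the acrosome and tail, reached 5895 and the proacrosin gene Acr 2305, both from the floor. Zp3r, of the acrosomal matrix, was at least 72.2-fold higher and Spaca3, a lysozyme-like acrosomal gene, at least 66.9-fold higher. Izumo1, the sperm ligand in egg fusion, read 1357 against the floor. Among ADAM genes, membrane proteins with metalloprotease and disintegrin domains, 8 of 15 were at least 4-fold higher and 1 lower. Those higher were testis members, among them Adam5 (at least 82.97-fold), Adam32 (at least 65.7-fold), Adam3 (at least 29.6-fold) and Adam2 (at least 18.4-fold). The one lower was Adam10, a broadly expressed sheddase, which went from 246 to the floor.

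Sperm tail genes had the largest share of higher members. Of 27 genes of the fibrous sheath and outer dense fibres 22 were higher by 4-fold or more, none was lower by as much, and the median log2 ratio was 4.84. Ropn1, a sheath protein that binds kinase anchors, went from the floor to 9143 (at least 183-fold). Odf1, an outer dense fibre gene, was measured at both ends, at 53.5 and 6118 (114-fold). Akap4, the main kinase anchor of the sheath, which lies on the X chromosome, reached 2631 from the floor, and Smcp, of the sperm mitochondrial capsule, 4129.6. Spata19, a mitochondrial protein gene of the midpiece, reached 4986, and Tekt4, a tektin, 4608. Cabyr, a calcium-binding sheath protein gene, was the list's member at similar level (286 against 320.3). The axonemal list, with a median of 2.89, had 30 of 43 members higher by 4-fold or more and no lower one. Spag6l, of the central pair, reached 3670.1 from the floor, Ccdc113 went from 89.9 to 4657, and the dynein genes Dnali1 and Dynlrb2 reached 1213 and 1567 from the floor. These 4 axonemal genes already read 6609, 6292, 2996 and 1592 in pachytene spermatocytes. Of the fibrous sheath and outer dense fibre list, Ropn1, Odf1, Akap4 and Smcp read 271, 363, 91.2 and 215 there. These 4 genes do not stand for their whole list. The median log2 ratio of pachytene spermatocytes over type A spermatogonia was 2.22 for that list and 2.999 for the axonemal list.

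Sperm kinases and channels showed the same direction. Of 26 genes of testis-specific kinases and sperm signalling 14 were at least 4-fold higher and 2 lower. The testis-specific serine kinases Tssk6, Tssk3, Tssk2 and Tssk1 read 6032, 3439, 2652 and 1954 in round spermatids, and each was at the floor in type A spermatogonia. Gsk3a, a widely expressed kinase, had similar levels of 2347 and 2034. Ion channel and transporter genes had 10 of 18 members higher by 4-fold or more and no lower one. Members of the CatSper calcium channel of the flagellum differed in timing: Catsper2 and Catsperz read 3386 and 5113 in pachytene spermatocytes and 3255 and 6706 in round spermatids, while Catsper1 read 113 and then 1741. The aquaglyceroporin gene Aqp7 reached 1311 and the carrier gene Slc22a14 3478, both from the floor.

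Regulators of transcription were less uniform. A difference of at least 4-fold was found for 9 of 24 listed regulators, each higher in round spermatids, and the median log2 ratio was 1.31. Gtf2a1l, a germ cell form of the general factor TFIIA, went from 78.4 to 6755 (86.2-fold), and Tbpl1, a relative of the TATA-binding protein, from 95.6 to 1842, with another probe set at a log2 ratio of -2.06. Spz1, a testis transcription factor gene, reached 6077 and Rfx2, a regulator of ciliary genes, 951, both from the floor. Foxj1, a regulator of motile cilia, was 11.2-fold higher. The broadly expressed Taf7 and Creb1 were lower, Taf7 by 3.76-fold (387 to 103) and Creb1 by 3.24-fold.

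Genes that handle stored RNA divided by member. Of 34 listed 8 (23.5%) were at least 4-fold higher and 2 (5.88%) lower, against 9.63% and 9.19% of all measured genes. The median log2 ratio of -0.22 turned positive in 3 of 10 alternative settings. Ybx2 and Ybx3, cold-shock proteins that bind stored mRNA, were 32.4-fold and 21.02-fold higher. Pabpc2, a poly(A)-binding protein gene, went from 51.4 to 4936, and Papolb, a poly(A) polymerase of spermatids, from the floor to 1452. Ddx25, a helicase gene of the chromatoid body, was 19.1-fold higher. The widely expressed RNA-binding genes Celf1 and Pum2 were 4.57-fold and 3.73-fold lower. Dazl, a germ cell translation regulator, was 3.01-fold lower (1744 to 579). In the piRNA list, of the small RNAs that silence transposons in germ cells, 6 of 13 (46.2%) were at least 4-fold higher and 3 (23.1%) lower. The tudor genes of the chromatoid body Tdrd6 and Tdrd7 were 47.9-fold and 15.9-fold higher, and Gtsf1 5.78-fold higher. The members lower by that much were Piwil2, a PIWI protein gene (519 to 106), Mov10l1, a helicase gene that feeds piRNA precursors (4879.7 to 1021), and Tdrkh (653 to 87.1).

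Lists of structural and quality-control genes had members in both directions. Of 34 tubulin, actin and actin-like genes 6 (17.6%) were at least 4-fold higher and 3 (8.82%) lower, against 9.63% and 9.19% of all measured genes. The actin-like genes of the sperm head Actl7b, Actl9, Actl7a and Actrt2 were all at the floor in type A spermatogonia and read 3498, 2179, 2115 and 1987 in round spermatids. The cytoskeletal actins Actb and Actg1 had similar levels (1024 against 1163, and 4967 against 5156). Of 42 chaperone genes 8 (19.05%) were at least 4-fold higher and 4 (9.52%) lower. Hspa2, the HSP70 of meiotic cells, was 21.4-fold higher (536 to 11485), and Dnajb3, a DNAJ gene, 84.8-fold higher. The mitochondrial chaperonin pair Hspd1 and Hspe1 was 7.32-fold and 5.62-fold lower. The endoplasmic reticulum chaperone Hspa5 had similar levels (1981 and 1629). Of 46 ubiquitin genes 7 (15.2%) were at least 4-fold higher and 8 (17.4%) lower. Klhl10, a substrate adaptor of spermatids, went from the floor to 3851 (at least 76.99-fold), and the ubiquitin ligase gene Marchf10 from the floor to 2542. The ligase genes Ubr2 and Skp2 went from 512 and 354 to the floor, and Huwe1 was 6.002-fold lower.

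Genes of energy metabolism differed by isoform. Of 25 genes listed as germ cell isoforms or partners of metabolic enzymes 16 passed 4-fold, all upwards, and the median log2 ratio was 4.13. The 16 include Odf1, a tail gene, and the list also holds widely expressed enzymes such as Glud1. Of 18 general isoforms 2 (11.1%) passed 4-fold upwards and 4 (22.2%) downwards, against 9.63% and 9.19% of all genes, and the median was -1.19. Ldhc, the germ cell lactate dehydrogenase, went from the floor to 10651 (at least 213-fold). The spermatid glyceraldehyde-3-phosphate dehydrogenase Gapdhs, which is bound to the fibrous sheath, went from the floor to 8146 (at least 163-fold). Cox8c, a cytochrome oxidase subunit, went from 419 to 12074 (28.8-fold). The general genes Ldhb, Hk2 and Pgam1 were lower, at least 8.73-fold, at least 6.999-fold and 6.17-fold, whereas Ldha (19.3-fold) and the triose phosphate isomerase gene Tpi1 (6.07-fold) were higher. The 56 measured genes of the respiratory chain and ATP synthase had 2 members (3.57%) at least 4-fold higher, Ndufc1 and Cox7a2, and none lower. Both shares were under those of all genes. The median log2 ratio of these 56 genes, 0.13, turned to -0.09 under spike-in scaling. Of them 14 (25%, against 11.2% of all genes) had similar levels.

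General and germ cell members of the same or a related enzyme or factor were set side by side in 35 listed pairs. Some pairs, such as Dnaja1 with Dnajb3 and Brd2 with Brdt, join relatives within a gene family. Both members were measured in 25 pairs. The germ cell members had been placed in the list for their known expression in meiotic and later cells. The germ cell member had the higher log2 ratio in 25 of 25 pairs. It was at least 2-fold higher in round spermatids in 23 and lower in none, and the general member was at least 2-fold lower in 11 and higher in 5. In 9 pairs the general member was lower and the germ cell member higher. Phosphoglycerate kinase gave Pgk1 at 173 and 60.1, and Pgk2 at the floor and 2507. Phosphoglycerate mutase gave Pgam1 at 566 and 91.7, and Pgam2 at the floor and 2956. The HSP70 genes Hspa8 and Hspa1l went from 1774 to 266 and from 58.01 to 1251. The calcineurin subunits Ppp3r1 and Ppp3r2 went from 404 to 105 and from 154 to 3738. The actin capping subunits Capza2 and Capza3 went from 298 to the floor and from the floor to 1504. In 5 pairs both members were at least 2-fold higher: Ldha with Ldhc, Ybx1 with Ybx2, Pabpc1 with Pabpc2, Tbp with Tbpl1 and Ppp3ca with Ppp3cc. Pabpc1 went from 2363 to 7818, with another probe set at a log2 ratio of -1.31. The germ cell members under 2-fold were Cstf2t, a polyadenylation factor, which was 1.59-fold lower beside 4.78-fold for its X-linked parent Cstf2, and Cox7b2, at similar level. Members of a pair resemble each other in sequence, and whether their probes share transcripts was not tested.

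**Figure D2:**
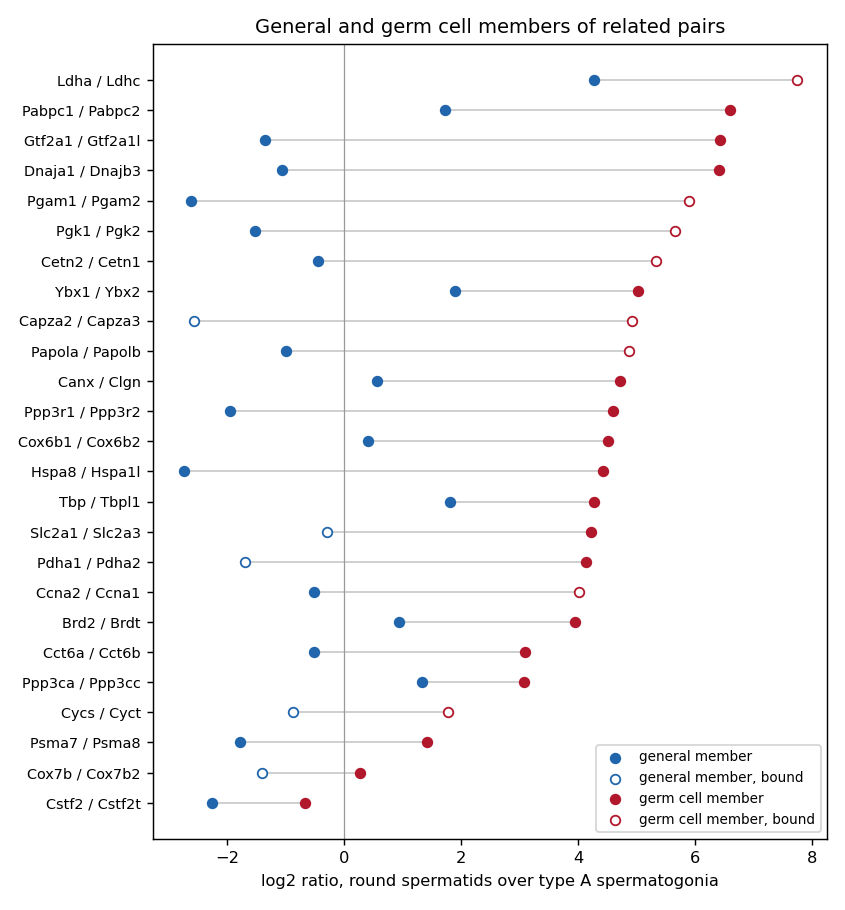
log2 ratio of round spermatids over type A spermatogonia for both members of 25 pairs, 1 array per cell type. Blue points are the general members and red points the germ cell members, open points are bounds with the lower signal at the floor, and in each row the red point lies to the right of the blue.

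Among genes over the highest negative control of both arrays, the largest ratio was that of Rbakdn, from 90.3 to 20634 (228-fold). It was followed by Bcl2l14, a BCL2-family gene, at 148-fold and by Zpbp2 and Odf1 above. Fhl4, a LIM-domain gene of the testis, went from 291 to 30314 (104-fold). Ube2d2b, a ubiquitin-conjugating enzyme gene, was 110.4-fold higher and Prps1l1, a phosphoribosyl pyrophosphate synthetase gene, 93.7-fold, with another probe set at a log2 ratio of -0.11. The others were Fam229b, Stpg4, Pabpc2, 1700019A02Rik and Gsg1, between 86.4-fold and 104-fold. Other probe sets of Gsg1 had log2 ratios from -0.15 to 0.46, those of Stpg4 from 0.46 to 5.53 and those of Odf1 from 0.84 to 5.46, and the other probe set of Pabpc2 had 0.999. Of genes at the floor in type A spermatogonia the highest bound was that of Fam229a, at 19222 in round spermatids (at least 384-fold). Tsga8, Prm1, Ldhc and Tnp2 were in this group as well, with Ms4a19, Marchf11, Efcab9, Iqcf3 and Ldhal6b between 10423 and 11739.7 in round spermatids. Other probe sets of Ms4a19 had log2 ratios from -1.68 to 6.08. Some of these, such as Ube2d2b and Pabpc2, are near copies of other genes, and whether the same probes read those transcripts was not tested.

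Of the genes lower in round spermatids, those over the highest negative control on both arrays were led by Tmem184a, from 5239.6 to 119.8 (43.7-fold), and by Nfkbia, the inhibitor of NF-kappa-B, from 14631 to 393 (37.2-fold). Carboxypeptidase E, Cpe, was 36.5-fold lower, with other probe sets from -4.53 to -0.53 on the log2 scale, and the lipid desaturases Scd2 and Fads2 36.4-fold and 36.3-fold. Gja1, the gap junction protein connexin 43, went from 1588 to 51.9 (30.6-fold), Cldn12, a claudin, was 24.6-fold lower and Sox4, a transcription factor gene, 22.7-fold. Defb19, a beta-defensin gene, went from 8802 to 397 (22.2-fold). The remaining members of this group, Lrrc8d, Ier2 and Gstm2, were 21.5-fold, 21.4-fold and 32.9-fold lower, although other probe sets of Gstm2 had log2 ratios of 0.22 to 0.88. The highest bounds were those of Kctd14 (3270.5 to the floor), the basement membrane collagen gene Col4a4 (3079.7), Prss35 (3010.1), Nfia, a transcription factor gene (2466), and Plagl1, an imprinted zinc finger gene (2384, with other probe sets at log2 ratios of -1.02 to -0.51). Acsbg1, Kank2, Wnt6, Clcn2 and Rnf213 followed, between 1294 and 1627 in type A spermatogonia. Beside these, 9 of 20 Sertoli markers and 10 of 21 fibroblast and matrix markers were at least 4-fold lower, with medians of -1.34 and -1.98. Clu, clusterin, read 3237 and 214, and the collagen gene Col1a1 1192 and the floor. Their part in the lower genes was not tested.

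Immediate early genes, which respond within minutes to growth factors or stress, had the lowest median of the lists. In round spermatids 22 of the 31 measured were lower by 4-fold or more, none was higher by as much, and the median log2 ratio was -2.88. Fos went from 4323 to 342 (12.6-fold), Egr1 from 2791 to 159.6 (17.5-fold) and Gadd45b from 1040.1 to 58.5 (17.8-fold). Jun went from 467 to the floor. Zfp36, which destabilises mRNAs, was 9.69-fold lower and the nuclear receptor gene Nr4a1 9.06-fold. Per1, a clock gene, had similar levels (195 and 183). In type B spermatogonia Fos, Egr1 and Jun read 6364, 2768 and 412, and in pachytene spermatocytes 613, 186 and 58.4.

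Receptor signalling, adhesion and imprinted genes were lower as well. In the list of receptor kinase, TGF-beta and BMP signalling 8 of 38 members (21.1%) were lower by 4-fold or more and 1 (2.63%) was higher. Of all measured genes 9.19% were lower and 9.63% higher by as much. Igf1r, the receptor of insulin-like growth factor, went from 2454 to 57.1. A negative control of that array read higher (59.0), so no fold is given. The common mediator Smad4 was 8.02-fold lower and Id2, a target of BMP signals, went from 469 to the floor. The member that was higher was Smad6, an inhibitor of BMP signalling (102 to 631). Adhesion genes had 13 of 37 members (35.1%) lower by 4-fold or more and 2 (5.41%) higher. The integrin chain Itgb1 and beta-catenin, Ctnnb1, were 8.27-fold and 5.56-fold lower. Cadm1, an adhesion molecule of spermatogenic cells, was 6.85-fold lower, from 1487 to 217. Nectin3, which joins spermatids to Sertoli cells, went the other way, from 60.5 to 1632 (26.98-fold). Imprinted growth regulators had 7 of 14 members (50%) lower by 4-fold or more and no higher one. Among the lower were Igf2 (825 to 78.6), Gnas (3392 to 245) and Peg3 (447 to the floor). Several of these genes are also expressed by somatic cells of the testis, whose markers were lower as given above, and their part was not tested.

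Regulators of spermatogonia themselves were lower with exceptions. Zbtb16, a transcription factor of stem cell maintenance, went from 670.4 to the floor (at least 13.4-fold), and Lin28a, an RNA-binding protein gene, from 228 to the floor. Dmrt1, which keeps spermatogonia in mitosis, went from 1195 to 129 (9.26-fold), and Stra8, induced at meiotic entry, from 482 to 88.9 (5.42-fold). The stem cell factor receptor Kit went from 385 to 77.9 (4.94-fold) and the ubiquitin hydrolase gene Uchl1 from 1199 to 260.4. At 2-fold 10 of 19 undifferentiated (52.6%) and 10 of 16 differentiating (62.5%) spermatogonia markers were lower, against 28.3% of all measured genes. Of the Sertoli and the fibroblast and matrix markers 55% and 66.7% were lower by as much. In each list of spermatogonia markers 3 were higher (15.8% and 18.75%), near the 18.0% of all measured genes. The exceptions included Dmrtb1, of the same family as Dmrt1, at 325 and 3559 (10.96-fold higher). Sall4 was another, at 248 and 588, and its other probe sets had log2 ratios of -3.08 to -1.59. Gfra1, the receptor of GDNF, was 2.04-fold lower, from a type A signal of 136.

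Genes of cell division were at least 4-fold lower about as often as all measured genes (9.19%): 11.3% of the replication list, 7.02% of the mitotic list and 8.82% of the recombination list. They were at least 4-fold higher in 1.89%, 3.51% and 2.94%, against 9.63% of all. Replication genes had 6 of 53 members lower by 4-fold or more and 1 higher, with 20 (37.7%, against 28.3% of all genes) and 3 at 2-fold. The helicase subunits Mcm2, Mcm3 and Mcm4 were 6.45-fold, 4.36-fold and 4.09-fold lower, and the polymerase gene Pold1 went from 695 to 57.99, which a negative control of that array exceeds (59.0). Rnaseh2a, a subunit of the enzyme that removes RNA from DNA, was 12.6-fold higher (123 to 1547). Of 57 mitotic genes 4 were at least 4-fold lower, 2 higher and 11 similar. The proliferation marker Mki67 and the Cdk subunit Cks1b were 7.92-fold and 6.66-fold lower. The kinase Aurka and Mad2l2 were 5.14-fold and 6.86-fold higher. Cdk1 (269 and 257), Birc5 (241 and 241) and Bub1b (399.6 and 344), of mitotic entry, the chromosomal passenger complex and the spindle checkpoint, had similar levels. Of 34 recombination genes 1 was at least 4-fold higher, Psmc3ip, and 3 were lower, Ubr2, Atm and Rpa2. The mitotic and recombination medians, -0.37 and -0.10, turned positive under common median scaling. Cdkn3, a phosphatase of the cyclin-dependent kinases, went from the floor to 2085 (at least 41.7-fold), and Ccna1, the germ cell cyclin A, from the floor to 806.

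Chromatin silencing and splicing genes were lower by moderate folds. Of DNA methylation and silencing genes 8 of 37 (21.6%) were lower by 4-fold or more and none higher, against 9.19% and 9.63% of all genes. At 2-fold 18 (48.6%) were lower and 0 higher, against 28.3% and 18.0% of all genes. The maintenance methyltransferase Dnmt1 went from 994 to 234 (4.25-fold), the de novo methyltransferase Dnmt3a from 397 to 54.1 (7.34-fold) and the remodeller Hells from 772 to 103 (7.51-fold). Uhrf1, the partner of Dnmt1, had similar levels (394 and 436). Splicing genes had 7 of 46 members (15.2%) lower by 4-fold or more and no higher one. At 2-fold 26 (56.5%) were lower and 1 (2.17%) higher, and the median was -1.10. Srsf3 went from 661 to 99.5, Hnrnpk from 445 to 72.9 and Hnrnpa2b1 from 2404 to 483. Ribosomal protein genes had 3 of 31 members (9.68%, near the 9.19% of all genes) lower by 4-fold or more and no higher one. At 2-fold 14 (45.2%) were lower and 1 higher, against 28.3% and 18.0% of all genes. Of the list 5 were similar, among them Rplp0 (4805 and 5108) and Rpl41 (9441 and 8561). The proteasome list had shares near those of all genes, 4 of 37 (10.8%) at least 4-fold higher, such as the activator Psme4 of acetylated histone degradation (5.48-fold), and 3 (8.11%) lower, such as the interferon-induced activator subunit Psme1, which went from 358 to the floor.

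**Figure D3:**
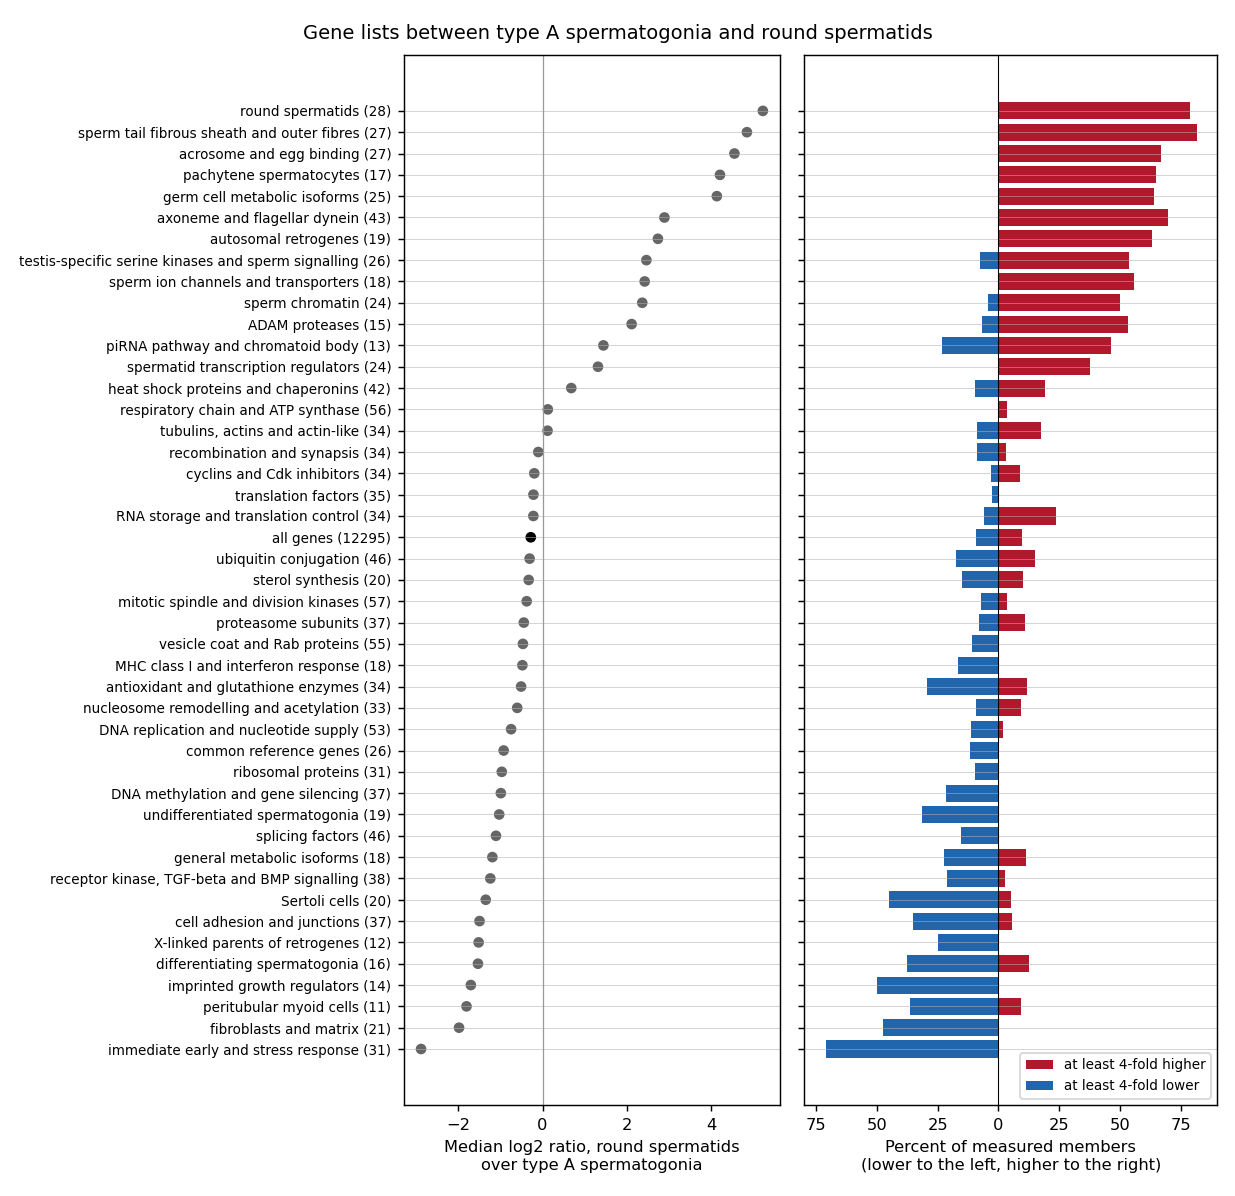
Gene lists ordered by the median log2 ratio of their measured members (left; the number of members is in brackets), with the percent of members at least 4-fold higher (red, to the right) and lower (blue, to the left) in round spermatids. The black point marks all 12295 measured genes. The lists of spermatid and pachytene markers, tail sheath and fibres, acrosome and germ cell metabolism lie above 4 and the immediate early list below -2.

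Genes of similar level at both ends numbered 1382, or 11.2% of measured genes. Of 26 commonly used reference genes 4 (15.4%) were similar, Actb, Rplp0, Tfrc and Vps29. At least 4-fold lower were 3 (11.5%, near the 9.19% of all genes): Ywhaz (9.77-fold), B2m (7.10-fold) and Tubb5 (6.96-fold). Hprt was 2.74-fold lower and Tbp 3.50-fold higher. Vesicle coat and Rab genes had 11 of 55 members (20%) at similar level, among them Arf1, a coat-recruiting GTPase (1834 and 1629), Rab11a, of recycling endosomes (885 and 825), and Sec13, of the COPII coat (261 and 307). Respiratory chain genes of similar level included Ndufv1 (1081 and 1084) and Atp5c1 (924 and 922). Which genes count as similar depended on the scaling: of the 1382 genes 485 were also similar under common median scaling, 455 under spike-in scaling and 845 after quantile normalization. The most even genes over all 4 cell types were Smim3, with signals of 236 to 247, Stxbp5, Dhx58, Plekhb2, Nop53, a ribosome biogenesis factor, Grin3a, a glutamate receptor subunit, Snx2, a sorting nexin, and Arpc2, of the Arp2/3 actin nucleator. Arpc2 had signals from 939 to 1021 and another probe set at a log2 ratio of -1.89.

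Some genes of similar level at both ends differed in between. Pachytene spermatocytes exceeded type A spermatogonia by at least 2-fold for 115 of the 1382 similar genes and were lower by as much for 97. At 4-fold these numbers were 11 and 9. Of 11907 measured autosomal genes 881 (7.40%) were higher and 739 (6.21%) lower by 4-fold at pachytene. Genes of similar level at both ends thus differed in between less often than autosomal genes in general. The genes highest in pachytene spermatocytes included Mllt10, which recruits a histone methyltransferase, at 619, 580.3, 4124 and 555 in the order of the stages, and Phf2, a histone demethylase gene, at 249, 214, 1738 and 266. Rb1cc1, an autophagy gene, reached 1656 in pachytene spermatocytes between 195 and 185 at the ends, and Mlc1, Rnf144b and Pou5f2 reached 706, 662 and 702. Lowest in pachytene spermatocytes was Stat2, of interferon signalling, at 595, 51.1, the floor and 649.6, with another probe set at a log2 ratio of -1.92. The cohesin gene Smc3 read 292, 215, the floor and 236, and Vps50, of endosome recycling, 426, 292, 68.99 and 407. Atp5mpl, Plbd1 and Frmd4b had the same shape.

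The stages between both ends divided the higher genes. The comparisons with type A spermatogonia share its arrays, so the counts below are descriptions. Of the 1184 genes at least 4-fold higher in round spermatids 5 already differed by that much in type B spermatogonia and 646 (54.6%) in pachytene spermatocytes, while 313 (26.4%) were under 2-fold there. Of the 1130 lower genes 8 differed by that much in type B spermatogonia and 604 (53.5%) in pachytene spermatocytes, and 166 (14.7%) were under 2-fold there. Ldhc, Zpbp2 and Gtf2a1l belonged to the early group, with pachytene signals of 8691, 14729 and 6464. Tssk3, H1f7 and Capza3 were at the floor in pachytene spermatocytes, and Akap4 (91.2) and Klhl10 (98.8) were just over it. Among the lower genes, Igf1r went down at each sampled stage, from 2454 through 1140.3 and 225 to 57.1. Clu kept 1717 in pachytene spermatocytes before 214 in round spermatids.

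**Figure D4:**
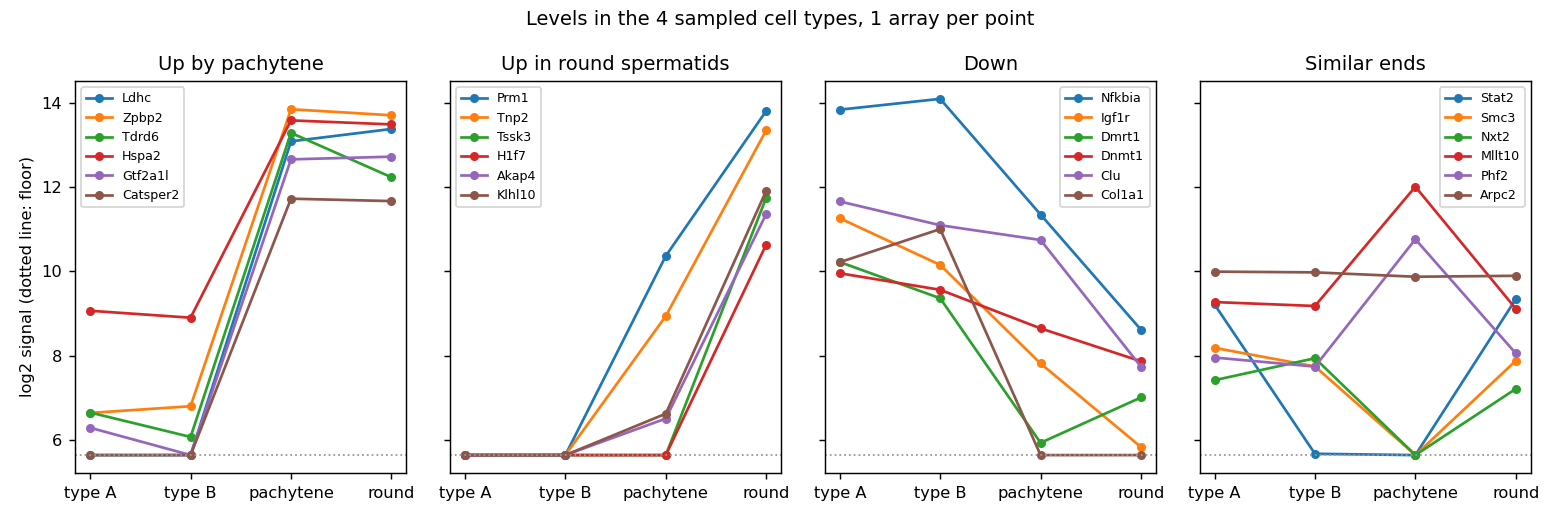
log2 signals of 24 genes in the 4 sampled cell types, 1 array per point, in panels for genes up by pachytene, up in round spermatids, down, and similar at both ends. In the second panel Prm1 and Tnp2 already read 1321 and 492 in pachytene spermatocytes. The dotted line is the floor; the genes were picked from the named ones to show each shape, and Stat2, Smc3 and Nxt2 dip to or near the floor in pachytene spermatocytes while Mllt10 and Phf2 peak there.

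The X chromosome differed from the autosomes in both directions. Of 363 measured X-linked genes 14 (3.86%) were at least 4-fold higher in round spermatids and 70 (19.3%) at least 4-fold lower, against 9.81% and 8.89% of 11907 autosomal genes. The median log2 ratio was -1.05 for X-linked and -0.26 for autosomal genes. In pachytene spermatocytes, when the X is silenced, 22.6% of X-linked and 6.21% of autosomal genes were at least 4-fold under type A spermatogonia. Of the 14 X-linked higher genes 13 were under 2-fold over type A spermatogonia at pachytene, against 299 of 1168 autosomal ones. Tsga8, the exception, read 498 there. Cypt1, a cysteine-rich spermatid gene, went from 296 through 465 at pachytene to 6783 (22.9-fold), Ctag2 from the floor to 863, and Rlim, the ubiquitin ligase of X inactivation in females, from 50.7 (under the highest negative control of that array, 55.1) to 558, with another probe set at a log2 ratio of -2.44. H2ap, a histone variant gene, read the floor at pachytene and 371 in round spermatids. The X-linked lower genes included Rps4x, a ribosomal protein gene (2883 to 145, with another probe set at a log2 ratio of 1.02), Rps6ka3, a kinase gene (1199 to 82.7), Phf8, a histone demethylase gene (1144 to 87.7), and Maged1 (2165 to 169.7). Of the similar genes 28 were X-linked, and 8 of these were at least 2-fold lower at pachytene, against 87 of 1351 autosomal ones. Genes listed as X-linked parents of retrogenes, which are copies made from mRNA, had 3 of 12 measured members (25%) lower by 4-fold or more. That share was near the 19.3% of all X-linked genes. None of the 12 was higher by as much, against 3.86% of X-linked genes. Of 19 measured genes listed as autosomal retrogenes 12 (63.2%, against 9.81% of autosomal genes) were higher by as much and none lower. That list also holds genes that are not such copies or not autosomal, such as Gspt1 and Siah1b, so it does not describe retrogenes alone. The 3 measured Y-linked genes were Eif2s3y, a translation factor gene (162 and 194), Kdm5d, a histone demethylase gene (155 and the floor), and Uba1y, a ubiquitin-activating enzyme gene (261 and 82.6), and all were at the floor in pachytene spermatocytes.

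**Figure D5:**
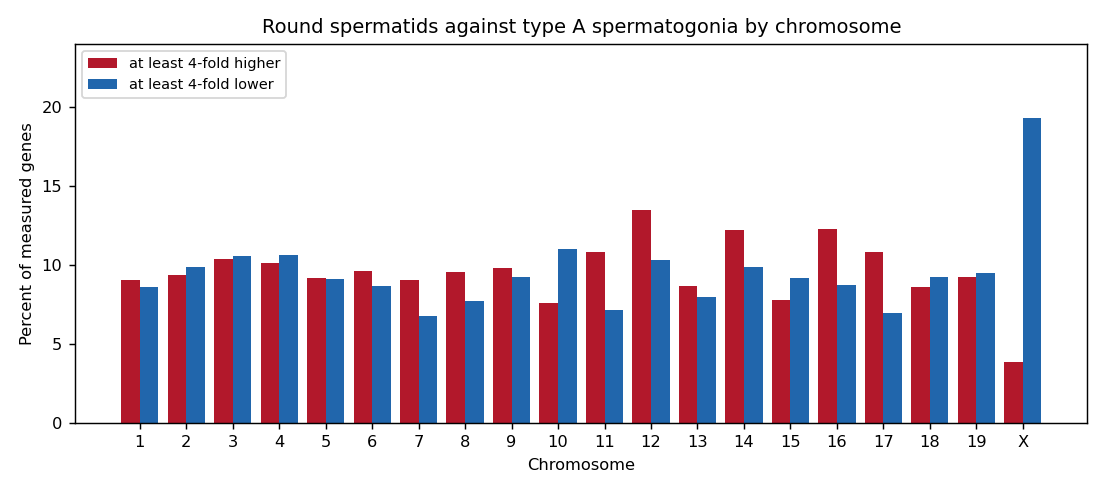
Percent of measured genes on each chromosome at least 4-fold higher (red) and lower (blue) in round spermatids than in type A spermatogonia. The Y chromosome, with 3 measured genes, is not drawn; of the chromosomes drawn, the X has the smallest share of higher genes (3.86%) and the largest share of lower genes (19.3%).

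Promoters of the 3 classes were described from RefSeq sequences of mouse build GRCm38.p6, 250 bases before to 50 bases after the first listed transcription start, for the 9862 measured genes that matched, 972 of the higher, 937 of the lower and 1088 of the similar class. CpG dinucleotides, the sites of DNA methylation, set the higher class apart from the lower and similar classes, which were close to each other. A ratio of observed to chance-level CpG of at least 0.6 was found in 68.3% of the promoters of measured genes, in 52.7% for the higher, 76.3% for the lower and 73.2% for the similar class. Among higher genes it was found in 61.0% of those at least 4-fold over type A spermatogonia by pachytene and in 31.8% of those under 2-fold there. The GC box, GGGCGG on either strand, was found in 61.8% of promoters of measured genes, in 46.1%, 73.0% and 64.4% of the classes in the same order, and in 33.5% of the late group of higher genes. TATAAA on either strand was found in 7.58%, and in 8.44%, 6.51% and 7.996% of the classes. CCAAT on either strand was found in 38.7%, and in 40.3%, 38.5% and 35.8%.

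The cAMP response element is the site bound by Crem and Creb1. Its palindrome TGACGTCA, which holds the shorter site TGACG on both strands, was found in 2.98% of promoters of measured genes, in 3.60% of the higher, 3.42% of the lower and 2.94% of the similar class, and in 1.88% of all 27025 promoters. TGACG on either strand was found in 30.8%, and in 27.3%, 32.3% and 31.6% of the classes. The element was thus present in a few percent of each class. The sequences around it in the 4 genes of highest ratio that carry it show how its place before the start differed. They are given 5′ to 3′ on the strand of the gene, with the element in capitals.
Iqcf3: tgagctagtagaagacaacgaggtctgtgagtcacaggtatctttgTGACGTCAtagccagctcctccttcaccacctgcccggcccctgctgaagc
Spag6l: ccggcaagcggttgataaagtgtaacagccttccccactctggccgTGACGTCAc
Znrf4: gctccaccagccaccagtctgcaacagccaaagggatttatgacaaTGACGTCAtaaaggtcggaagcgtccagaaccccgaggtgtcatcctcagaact
Phospho2: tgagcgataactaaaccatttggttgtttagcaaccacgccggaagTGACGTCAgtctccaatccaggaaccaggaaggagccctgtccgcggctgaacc
They are from chr9:106561627-106561723 (minus strand), chr16:16829364-16829418 (minus strand), chr17:56512499-56512598 (minus strand) and chr2:69789529-69789628 (plus strand) of GRCm38.p6. The element began 51 bases before the start in Iqcf3, a calmodulin-binding motif gene (at least 212-fold higher), 9 in Spag6l (at least 73.4-fold), 69 in Znrf4, a ubiquitin ligase gene (at least 62.4-fold), and 162 in Phospho2, a phosphatase gene (35.8-fold). A match is a description of letters and not evidence of binding.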

How the data were processed

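RNA of type A spermatogonia and round spermatids was compared on 3 array designs, with 1 array per cell type and design, by the titles of the samples. The authors deposited a linear intensity signal for each probe set. The submitters' processing notes name MAS5. Version and settings are not given in the sources used here, and detection calls were not used here. In the deposited values each array had a 2% trimmed mean between 125.02 and 125.1, so differences in total RNA per cell are scaled away. Each array was rescaled to the geometric mean of these over the 4 arrays of its design. Signals were set to a floor of 0.4 of that mean and log2 ratios taken within a design (Python 3.11.15, numpy 2.4.6, pandas 2.3.3). The scripts were tested on simulated data.

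Controls left out, the designs held 36701 probe sets, to which the platform annotation gave 1 gene symbol (29131), several (724) or none (6846). Of these, 29086 were matched to RefSeq (GRCm38.p6), which updated symbols and gave chromosomes. A gene was represented by its probe set of highest mean signal over the 4 cell types. Array designs were scaled separately, so no level is set across them, apart from the marker sums, which add signals over designs.

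The gene lists, the pairs and the rule for named genes were chosen with earlier results of these data known, so their counts are descriptions and no independent evidence. The rule named the 12 largest ratios in each direction over the negative controls, the 10 highest bounds in each direction, and the 8 most even genes. It also named the 6 genes of similar ends with the highest and the 6 with the lowest pachytene signal, up to 8 members of each list, the members of pairs, and the 4 highest genes with a full cAMP response element. Cabyr and other list members outside that number, the X- and Y-linked genes, and genes whose course is described were chosen after their values were seen. Alternatives were other scalings, floors, choices of probe set, thresholds and subsets of designs. No test was run, since no group has a replicate.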

Additional observations from a re-analysis of the deposited data

How the results depend on the processing

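The number of genes at least 4-fold lower in round spermatids moved most: it was 719 under common median scaling, 2259 with no floor, 613 with the floor doubled, 744 with the mean over probe sets and 699 without the U74Av2 design. At 2-fold 2214 genes were higher and 3477 lower, and at 8-fold 700 and 253. Genes of similar level numbered 893 without the U74Bv2 design and 2395 at a 1.5-fold threshold. The other alternatives kept these counts within 1.5 times. Of 25 lists with a median log2 ratio of at least 1 in size, none changed sign in 10 alternatives. Of 205 named genes with at least 2-fold differences 188 stayed so in every alternative that gave a value for them, 8 to 10 for each gene. Direction turned for Sall4 (-1.14 with the mean over probe sets and -3.08 without probe sets of special endings) and for Prps1l1 (-0.11 without them). Cdyl, Rlim, Tbpl1, Pabpc1, Cox7a2, Cpe, Plagl1, Rpa2, Cstf2, Dazl, Creb1, Pgk1, Ppp3ca, Gfra1 and Kdm5d came under 2-fold in at least 1. The cause was not tested. No paired analysis was possible because each group has 1 array per design and no replicate. Signal over background limits genes near the floor: for 54 higher and 30 lower genes measured at both ends a negative control of that array read higher than the lower signal.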
